A study of Mus musculus with 24 samples.

Results

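The large histone gene cluster of mouse chromosome 13 was examined in maps of the transcription factor Sox9 and of the histone mark H3K4me3 made from kidney cells after injury. The cluster was taken as every peak with its summit in chr13:21700001-23700001 of mm10, the mouse genome build of the files. By this rule 443 of the 576562 peaks of 16 lists were members. Of these, 91 had their summit in a histone gene or within 1000 bp of one and 352 lay between histone genes. The other 24898 peaks of chromosome 13 served for comparison.

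The cells were from male Sox9IRES-CreERT2/+:R26RtdT/+ mice, 9 to 12 weeks old, that had undergone bilateral ischaemia-reperfusion injury of the kidneys and were given tamoxifen at the injury. Cre activity under the Sox9 locus switches on tdTomato, so the sorted red cells are those with Sox9 activity around the injury together with their descendants. No uninjured kidney and no cell without the reporter was among the samples, so every group shares the injury, the genotype and the sort. The groups were Sox9 at 10 days, Sox9 at 48 h, H3K4me3 at 10 days and H3K4me3 at 48 h, with 4 biological replicates each. Pellets of about 100000 cells were fixed in 0.2% paraformaldehyde and divided into 3 aliquots, for Sox9, for H3K4me3 as the positive control and for an input. The assay was CUT&RUN, in which an antibody directs a nuclease to cut out the DNA around its target. The cell type label names day 10 for all samples, so the times were taken from the titles. The 8 inputs were not analysed here as samples of their own.

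Most histone protein is made during DNA replication from clustered, intronless genes whose mRNAs end in a stem-loop in place of a poly(A) tail. H2A, H2B, H3 and H4 form the core of the nucleosome, and H1 binds the DNA between cores. H2A and H2B genes often lie head to head and share the short DNA between their starts. The coactivator NPAT gathers at these clusters in a histone locus body, and SLBP binds the mRNA stem-loop. H3K4me3 marks the start of active genes. Sox9 is switched on in tubule cells after kidney injury, when surviving cells divide.

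The window held 43 protein-coding histone genes of the 88 protein-coding genes annotated in it, namely 4 H1, 11 H2A, 13 H2B, 6 H3 and 9 H4 genes. The name of the cluster fits this annotation. The window does not hold all of it, since 11 further histone genes of chromosome 13 lie beyond the right edge. The genes sit in 3 blocks, of 18 genes at chr13:21715711-21837530, 5 genes at chr13:22035122-22043658 and 20 genes at chr13:23531044-23698458. The median annotated length was 488 bp, and 38 of the 43 genes were no longer than 1000 bp. The exceptions are 5 H2B genes with annotated spans of more than 3000 bp, the longest being H2bc6 with 37455 bp. With 1000 bp on each side the histone genes covered 145161 bp, which is 7.26% of the window.

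The promoters of 6 histone genes are shown because the peaks described below lie beside them and because their sequence differs by family. Each is the 250 bases before the annotated start, read on the strand of the gene, from RefSeq promoters of GRCm38.p6, the assembly of mm10. Capitals mark matches, on either strand, to CCAAT, the box bound by NF-Y, to TATAAA, to ATTTGCAT, the octamer bound by Oct-1, and to AACAAT, a core of Sox binding sites. H4c8 was the one gene of the 12 named by rank with a summit in this stretch, and the other 5 were chosen after their values were seen.
H4c8, chr13:23530794-23531043, plus strand: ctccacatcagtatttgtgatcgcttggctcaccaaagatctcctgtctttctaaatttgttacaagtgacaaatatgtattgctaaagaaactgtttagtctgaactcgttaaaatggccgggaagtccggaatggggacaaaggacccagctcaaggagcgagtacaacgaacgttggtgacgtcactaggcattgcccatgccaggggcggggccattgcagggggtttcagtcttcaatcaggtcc
H4c4, chr13:23581318-23581567, plus strand: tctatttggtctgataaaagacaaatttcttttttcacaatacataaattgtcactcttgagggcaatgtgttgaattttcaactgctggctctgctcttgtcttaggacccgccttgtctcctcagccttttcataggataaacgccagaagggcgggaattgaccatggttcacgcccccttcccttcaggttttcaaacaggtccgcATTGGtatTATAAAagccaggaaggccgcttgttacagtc
H2bc12, chr13:22035571-22035820, plus strand: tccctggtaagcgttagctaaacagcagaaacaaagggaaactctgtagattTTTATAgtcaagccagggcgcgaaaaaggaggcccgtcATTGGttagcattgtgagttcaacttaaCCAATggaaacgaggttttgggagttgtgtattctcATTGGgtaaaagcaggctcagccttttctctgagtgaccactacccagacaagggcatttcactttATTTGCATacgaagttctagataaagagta
H2bc7, chr13:23574208-23574457, minus strand: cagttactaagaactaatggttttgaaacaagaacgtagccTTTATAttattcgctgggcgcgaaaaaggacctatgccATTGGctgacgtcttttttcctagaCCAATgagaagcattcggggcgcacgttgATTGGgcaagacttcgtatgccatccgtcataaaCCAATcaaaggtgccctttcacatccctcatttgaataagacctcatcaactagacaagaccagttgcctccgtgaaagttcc
H3c6, chr13:23562386-23562635, minus strand: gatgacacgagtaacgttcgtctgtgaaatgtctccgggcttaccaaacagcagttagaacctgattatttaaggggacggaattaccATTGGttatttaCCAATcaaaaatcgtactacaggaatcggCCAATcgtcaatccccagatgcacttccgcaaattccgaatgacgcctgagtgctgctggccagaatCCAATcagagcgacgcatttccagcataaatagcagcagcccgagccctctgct
H3c10, chr13:21717378-21717627, plus strand: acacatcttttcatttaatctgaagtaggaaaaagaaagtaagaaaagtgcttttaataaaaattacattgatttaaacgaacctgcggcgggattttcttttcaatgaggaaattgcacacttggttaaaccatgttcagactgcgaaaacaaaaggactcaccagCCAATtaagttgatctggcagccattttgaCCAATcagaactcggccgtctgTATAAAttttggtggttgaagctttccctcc

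Promoter sequences were found for 41 of the 43 genes, 42 promoters in all. CCAAT was present in 35 of the 42 (83.3%), against 33.8% of the 32851 promoters of the table. It was in all 11 H2A, 13 H2B, 5 H3 and 4 H1 promoters, and in 2 of the 9 H4 promoters. TATAAA was present in 47.6% of the histone promoters, against 12.4% of all promoters, and the octamer in 16.7%, against 1.60%. The octamer matches were in 3 H2A and 4 H2B promoters. AACAAT was present in 7.14% of the histone promoters, against 9.42% of all promoters. Divergent promoters share sequence, as in the H2bc12 stretch, which runs through the gap to H2ac12 and into that gene, so these counts are not independent. The median GC content was 45.0% in the histone promoters and 52.4% in all promoters.

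Peaks were sparse and low in every list. The lists held 7724 to 85420 peaks for Sox9 and 25824 to 88511 for H3K4me3, of which 7 to 69 and 17 to 65 lay in the window. Sequencing depth is not given in the sources used here, so a value cannot be tied to a number of reads. Peak heights fell on whole multiples of a smallest height, called a step here, whose size differs between lists. At exactly 1 step stood 92.5% to 97.8% of the peaks of a list, and 421 of the 443 window peaks. The tallest window peaks had 3 steps. A list averages all sorted cells, so fewer cells with a peak and less signal per cell cannot be told apart. Because list length varied more than 10-fold, density is given as relative peak density, the share of a library's chromosome 13 peaks that lie in a stretch divided by the share of the chromosome's length that the stretch makes up. A value of 1 is the average of the chromosome.

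**Figure D1:**
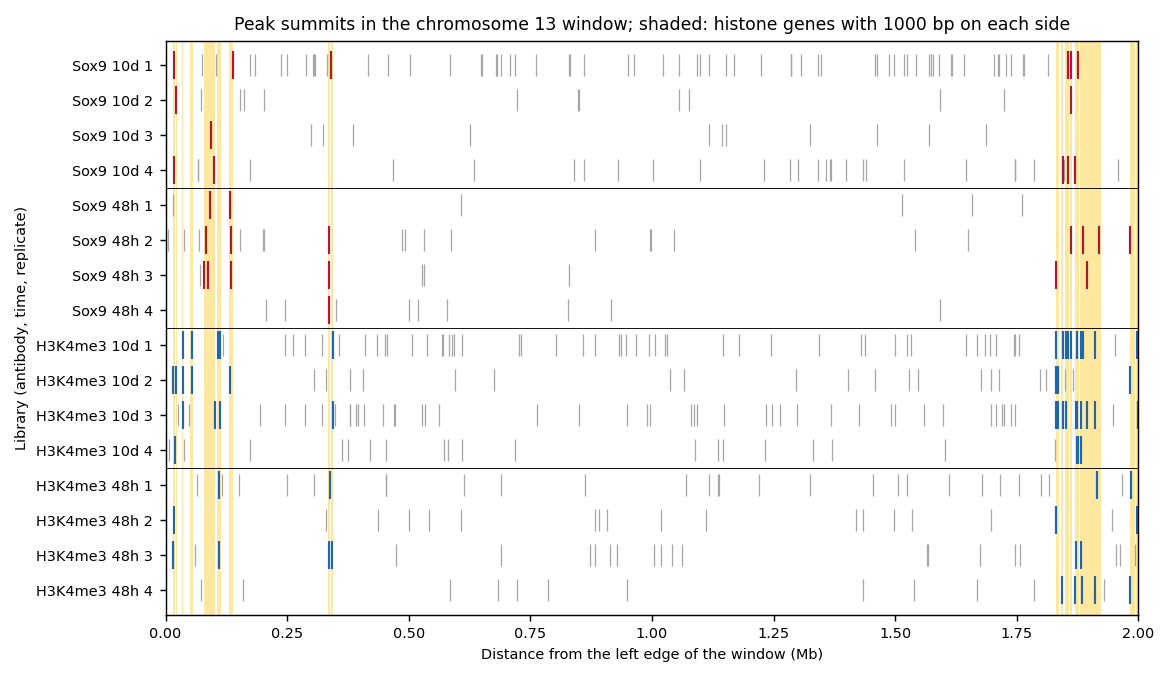
Peak summits along the window, by distance from its left edge in Mb, with 1 row per library. Coloured ticks are the 91 summits in shaded histone gene zones, grey ticks the 352 summits between them. Coloured ticks gather in the 3 gene blocks at the left, near 0.3 Mb and at the right, while the grey ticks are spread over the middle.

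Peaks of both antibodies were denser at histone genes than on the chromosome as a whole. For Sox9 the relative peak density was 3.13 ± 2.27 (SD, n = 8), resting on 30 peaks, and for H3K4me3 it was 3.15 ± 0.980 (SD, n = 8), resting on 61 peaks. It was above 1 in 8 of 8 libraries of each antibody. Two-sided exact sign-flip permutation tests gave p = 0.00781 for each, the smallest that 8 libraries can give, and 0.03125 after adjustment over 8 tests of density. Between histone genes the density was 0.858 ± 0.221 for Sox9 and 0.865 ± 0.201 for H3K4me3 (SD, n = 8 each). Neither passed the test (exact sign-flip p = 0.0625 and p = 0.125), although 7 of 8 libraries of Sox9 and of H3K4me3 lay below 1. Over the whole window the density was 1.02 ± 0.178 for Sox9 and 1.03 ± 0.202 for H3K4me3 (SD, n = 8 each). Neither differed from 1 beyond the spread between libraries (exact sign-flip p = 0.711 and p = 0.703).

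The density at histone genes was set beside that at the ends of other genes, because peaks of both antibodies are denser at gene ends elsewhere too. These other genes were protein-coding genes of chromosome 13 outside the window, so the other gene families of the window were left out. Within 1000 bp of their ends the density was 3.12 ± 0.617 for Sox9 and 2.72 ± 0.400 for H3K4me3 (SD, n = 8 each). Histone genes exceeded these ends by 0.00777 ± 1.95 for Sox9 (higher in 3 of 8 libraries, exact sign-flip p = 0.992) and by 0.423 ± 0.905 for H3K4me3 (higher in 6 of 8 libraries, p = 0.219). No difference from other gene ends was therefore detected for either antibody, and the libraries scattered widely for Sox9. The 2 zones are unlike, since that of the histone genes takes in whole genes, with the long spans of 5 H2B genes. That of the other genes leaves out the bodies of long genes. A comparison at starts alone is given below. With 3000 bp on each side in place of 1000 bp, the H3K4me3 difference was 0.670 and passed before adjustment (exact sign-flip p = 0.0391).

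Individual libraries showed how few peaks carried these values. In the Sox9 libraries at 10 days the relative density at histone genes was 1.21, 2.53, 1.01 and 2.26 in replicates 1 to 4, from 6, 2, 1 and 5 peaks. In the Sox9 libraries at 48 h it was 4.78, 5.11, 7.09 and 1.05, from 2, 7, 6 and 1 peaks. Replicates 1, 2 and 3 at 48 h lay above all libraries at 10 days, and replicate 4 at 48 h lay among those at 10 days. The means were 1.75 ± 0.752 at 10 days and 4.51 ± 2.52 at 48 h (SD, n = 4 each), a difference of -2.75. It did not pass a two-sided exact permutation test (p = 0.114, adjusted 0.457), for which 0.0286 is the smallest possible value. Without replicate 4 at 48 h the difference was -3.91, with no overlap between the times (exact permutation p = 0.0286). That is the 1 library at 48 h that overlapped those at 10 days, so the separation follows from leaving it out and is no further evidence. No other omission of a replicate passed, with exact permutation p up to 0.171. The Sox9 density at the ends of other genes was also higher at 48 h. It was 2.69 ± 0.614 at 10 days (at most 3.22) and 3.55 ± 0.163 at 48 h (at least 3.39; SD, n = 4 each), without a test of its own. The Sox9 excess of histone genes over these ends differed between the times by -1.90 and did not pass (exact permutation p = 0.229, adjusted 0.594).

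In the H3K4me3 libraries the density at histone genes was 3.33, 4.70, 3.87 and 2.20 at 10 days, from 16, 8, 15 and 4 peaks. At 48 h it was 2.58, 1.65, 3.14 and 3.69, from 4, 3, 6 and 5 peaks. The groups overlapped, with means of 3.53 ± 1.05 at 10 days and 2.77 ± 0.869 at 48 h (SD, n = 4 each; difference 0.760, exact permutation p = 0.314). Sox9 and H3K4me3 differed by -0.0165 over 8 libraries each (exact permutation p = 0.986), although the densities of single Sox9 libraries ranged more widely. Within pellets, Sox9 minus H3K4me3 averaged -1.77 ± 1.27 at 10 days and 1.74 ± 3.01 at 48 h (SD, n = 4 each). The difference between these averages was -3.51 and did not pass (exact permutation p = 0.114). Taken 1 time at a time, each antibody was above 1 in 4 of 4 libraries, and 4 libraries cannot give a sign-flip p below 0.125.

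**Figure D2:**
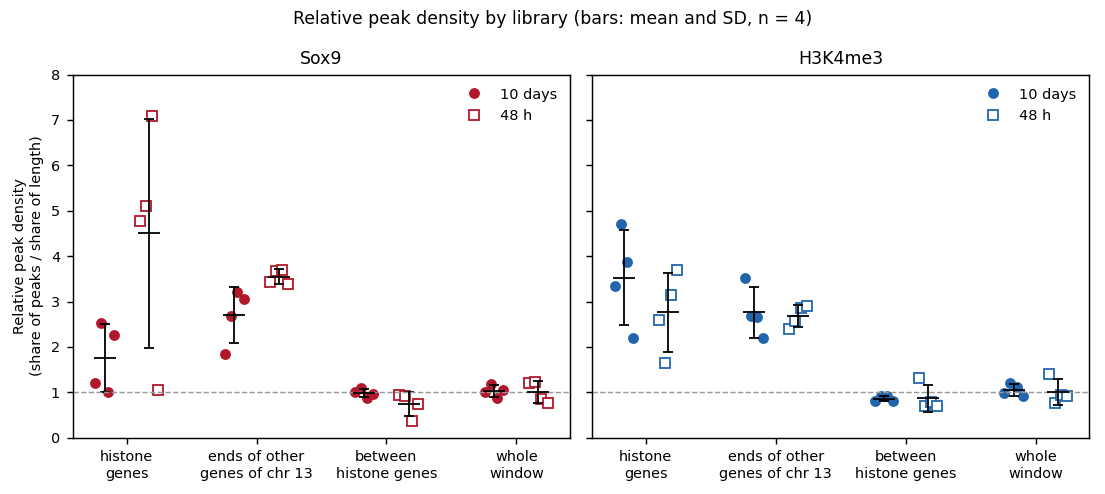
Relative peak density in each library at 10 days and 48 h. From left to right are histone genes, ends of other genes of chromosome 13 outside the window, sequence between histone genes and the whole window. Horizontal marks and bars are the mean and SD of 4 libraries, and the dashed line is the chromosome average. At histone genes the Sox9 libraries at 48 h reach 7.09 while replicate 4 sits at 1.05, and the H3K4me3 libraries lie between 1.65 and 4.70.

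Inside the histone gene zones the summits lay in the short genes themselves more than in the DNA before them. The 38 genes of up to 1000 bp made up 13.7% of the zone and held 17 of the 30 Sox9 summits (56.7%) and 39 of the 61 H3K4me3 summits (63.9%). Within 500 bp of the nearest annotated start lay 17 of the 30 Sox9 summits and 42 of the 61 H3K4me3 summits. In the 250 bp before the 42 starts there were 0 Sox9 summits, against 9 in the first 250 bp after the start and 8 in the next 250 bp. H3K4me3 had 5 summits in the 250 bp before, 14 in the first 250 bp after the start and 24 in the next. Around the 750 starts of other genes of the chromosome, Sox9 counts were 82, 145 and 116 in the same order, and H3K4me3 counts were 213, 277 and 182. A summit beside 2 divergent starts counts for both, and the counts are given without a test. The gene bodies of a family are close to identical in sequence between copies, and how reads with several matches were placed is not given in the sources used here. A peak named for 1 histone gene may therefore hold reads of another copy.

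**Figure D3:**
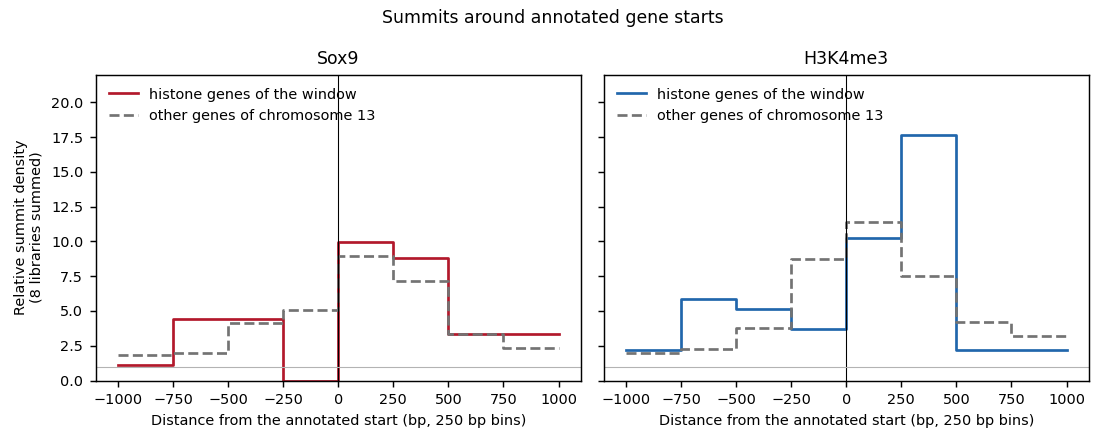
Relative summit density in 250 bp bins around annotated starts, 8 libraries of an antibody summed, for the histone genes of the window and for other genes of chromosome 13. For histone genes the Sox9 line is at 0 just before the start and the H3K4me3 line is highest 250 to 500 bp after it, at 17.6, where other genes are at 7.48.

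The gaps of the divergent H2A and H2B pairs, from which both genes are transcribed outwards, make up 1.26% of the histone gene zone. Of the 9 such gaps in the window, 163 to 267 bp long, 1 held a summit, which is 1 of the 91 summits of the zone. It lay between H2ac11 and H2bc11, in H3K4me3 replicate 1 at 10 days. With 250 bp into each gene added, 5 of the 9 pairs had a summit, each in 1 list. H2ac22 with H2bc22, H2ac24 with H4bc24 and H2ac12 with H2bc12 had it in Sox9 replicate 3 at 48 h, and H2ac8 with H2bc8 in H3K4me3 replicate 3 at 10 days. H4bc24 is counted as an H2B gene because of its older symbol in the gene table.

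Gene by gene, a Sox9 peak lay in or within 1000 bp of 25 of the 43 histone genes in at least 1 of 8 libraries (58.1%). Among the 1539 protein-coding genes of up to 1000 bp that are not among the 43, the share was 19.8%. Among all 21887 protein-coding genes, most of them far longer, it was 80.0%. For H3K4me3 this held at 34 of 43 (79.1%), against 27.1% of the short genes and 86.7% of all genes. In at least 3 of 8 libraries, Sox9 peaks recurred at 5 histone genes (11.6%, against 1.17% of short genes and 43.8% of all). H3K4me3 peaks recurred at 12 (27.9%, against 2.08% and 62.1%). The share at histone genes lay above that of the short genes and below that of all genes. The lengths are not fully matched, since 5 of the 43 histone genes span more than 3000 bp. Counting 1000 bp around gene ends alone, which leaves out the bodies of long genes, Sox9 peaks were found in 10.5% of the combinations of histone gene and library, against 9.98% for all genes, and H3K4me3 peaks in 21.2%, against 17.3%. A library had Sox9 peaks at 1 to 9 of the 43 genes and H3K4me3 peaks at 3 to 19.

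The shares differed between the histone families, on small counts and without a test. Sox9 was found in 15.4% of the combinations of gene and library for H2B, 11.4% for H2A, 4.17% for H4, 16.7% for H3 and 9.38% for H1. For H3K4me3 these shares were 26.9% for H2B, 23.9% for H2A, 27.8% for H4, 14.6% for H3 and 3.12% for H1. Over all 43 genes the shares were 11.6% for Sox9 and 22.4% for H3K4me3. The Sox9 share of H4 was the smallest of the 5 families at both times, but it rested on few combinations. It was 2.78% at 10 days (1 of 36) and 5.56% at 48 h (2 of 36), where H1 had 6.25% (1 of 16). The H3K4me3 share of H4 was the largest at 10 days, 44.4%, but at 48 h it was 11.1%. H2B had H3K4me3 shares of 30.8% at 10 days and 23.1% at 48 h, and H2A had 31.8% at 10 days and 15.9% at 48 h. H3 had 20.8% at 10 days and 8.33% at 48 h, and H1 had 6.25% at 10 days and none at 48 h. The H3K4me3 share of all 43 genes was 30.2% at 10 days and 14.5% at 48 h, the lists at 10 days being longer on average. The shares were not adjusted for gene length, and the 5 genes with spans of more than 3000 bp are all H2B. Of the 16 Sox9 combinations of H2B, H2bc22 had 4, H4bc24 had 3, H2bc6 had 2, H2bc4 had 1 and H2bc23 had 0. These shares are a description, since members of a family share sequence and neighbours share peaks. The 4 genes with no peak in any list were H4c12, H3c8 and the H1 genes H1f4 and H1f6, the last of which encodes a testis form.

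**Figure D4:**
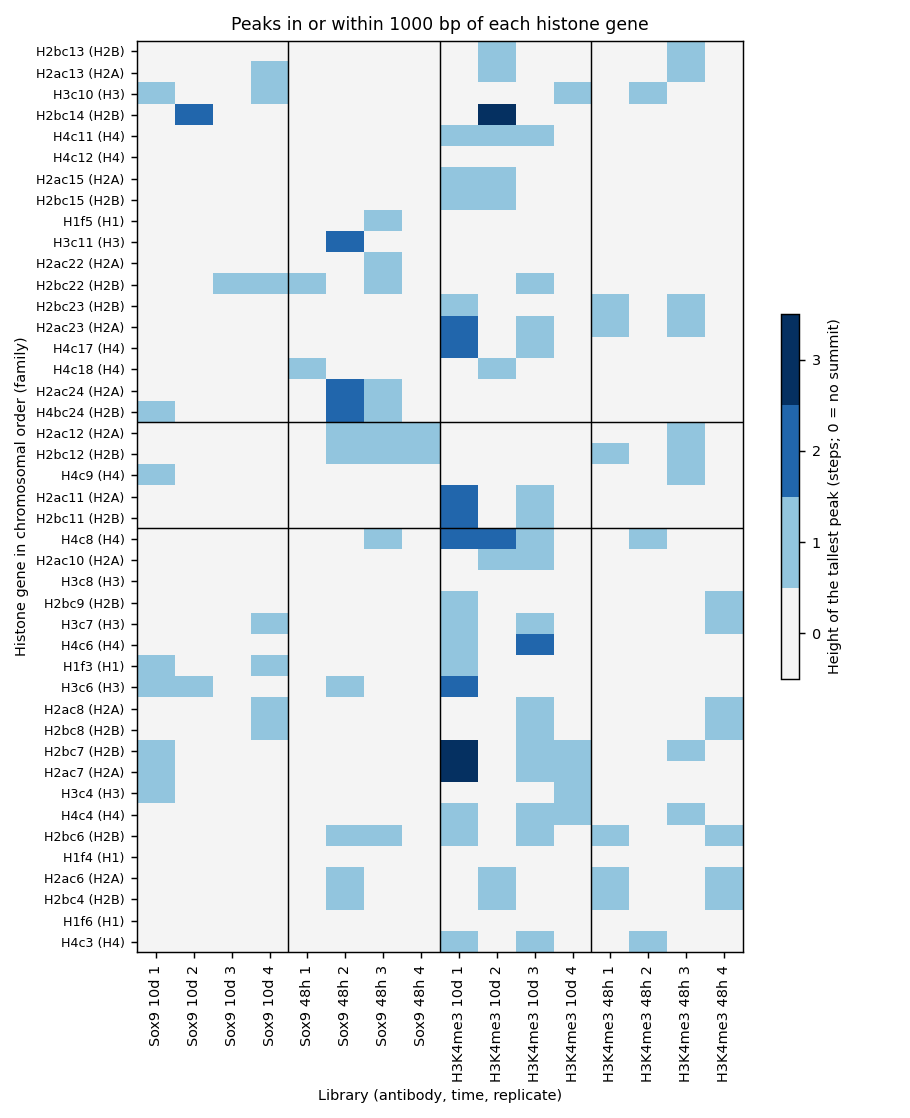
Height of the tallest peak, in steps, in or within 1000 bp of each of the 43 histone genes in each of 16 libraries, genes in chromosomal order with lines between the 3 blocks. H3K4me3 at 10 days fills the most cells, and no gene has a peak in more than 6 libraries.

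By the number of lists with a peak, the 12 leading genes were H2bc6 in 6 lists, H4c8, H2bc7, H2bc22 and H2bc12 in 5, and H2ac23, H3c6, H2ac7, H3c10, H2ac12, H3c7 and H4c4 in 4. All encode core histones. H4c4 held the 1 stretch of the window with overlapping peaks in 4 lists, at chr13:23581687-23581905. Its H3K4me3 summits lay 172, 268 and 260 bp after the start in replicates 1, 3 and 4 at 10 days, and 176 bp after it in replicate 3 at 48 h. Each of these peaks had 1 step, and H4c4 had no Sox9 peak. The promoter printed above ends where the gene starts, so the peaks lie beyond it.

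H4c8 was the named gene with a summit in its printed promoter. In H3K4me3 libraries at 10 days it had 2-step peaks at -57 bp in replicate 1 and at 172 bp in replicate 2, and a 1-step peak at 756 bp in replicate 3. At 48 h it had H3K4me3 at 240 bp in replicate 2 and Sox9 at 198 bp in replicate 3. Its printed promoter, unlike the others, holds none of the 4 motifs. At its neighbour in the ranking, H2bc7, the H3K4me3 summits at 10 days lay 321, 299 and 320 bp after the start in replicates 1, 3 and 4, with 3, 1 and 1 steps. H2ac7, its divergent partner, was counted with the same H3K4me3 peaks because they lie within 1000 bp of it.

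H2ac12 and H2bc12 were the histone genes with Sox9 peaks in 3 libraries at 48 h and in none at 10 days. Sox9 summits were found in replicates 2, 3 and 4 at 48 h, and none was found at 10 days. They lay 302 and 98 bp after the start of H2bc12 in replicates 2 and 3, and 326 bp after the start of H2ac12 in replicate 4. The summits are thus spread over both genes of the pair rather than stacked at 1 place, and each peak had 1 step. Presence in at least 3 libraries at 48 h and in none at 10 days was met by these 2 histone genes (4.65%), against 0.219% of all protein-coding genes. Both genes are counted from the same 3 peaks, each within 1000 bp of both, so they stand for 1 place and not for 2 independent genes. The same rule with the times exchanged was met by no histone gene for Sox9, against 2.8% of all genes.

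For H3K4me3 the genes that met it with the times exchanged, 3 libraries at 10 days and none at 48 h, were H4c11 and H2ac7 (4.65%, against 2.86% of all genes). At H4c11 the summits lay 243, 277 and 295 bp after the start in replicates 1, 2 and 3 at 10 days. For H3K4me3 no histone gene met the rule in the direction of 48 h, against 0.288% of all genes. With all 4 libraries at 10 days and none at 48 h required, no histone gene qualified, against 0.379% of all genes for Sox9 and 0.512% for H3K4me3. With all 4 at 48 h and none at 10 days there was no such gene either, against 0.0183% for Sox9 and 0.0274% for H3K4me3.

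H2bc6 and H2bc22 lead the ranking with long annotated spans, and their peaks lay mostly far from a start. At H2bc6, H3K4me3 peaks of replicates 1 and 3 at 10 days and replicate 4 at 48 h overlapped at chr13:23610961-23611456, with summits 10067, 9819 and 9815 bp from the nearest start. Its further H3K4me3 summits lay at 235 bp in replicate 1 and -8363 bp in replicate 3 at 10 days. At 48 h they lay at 6329 bp in replicate 1 and 728 bp in replicate 4. Sox9 summits of H2bc6 lay at 234 and 922 bp in replicate 2 and -8522 bp in replicate 3 at 48 h. At H2bc22, Sox9 summits at 48 h lay 4730 bp after the start in replicate 1 and 222 bp after it in replicate 3. At 10 days the Sox9 summit of replicate 3 lay 6264 bp after it. That of replicate 4 at 10 days lay 10884 bp from the nearest start, which is that of H2bc23. When only 1000 bp on each side of annotated starts was counted, the density at histone genes was 5.45 for Sox9 (exact sign-flip p = 0.0234) and 6.03 for H3K4me3 (p = 0.00781). Both densities were higher than those over the whole spans. Histone gene starts exceeded the starts of other genes by 0.633 for Sox9 (exact sign-flip p = 0.719) and by 1.41 for H3K4me3 (p = 0.0781), neither of which passed.

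Among the H3 genes, H3c6 had Sox9 summits 222 and 115 bp after its start in replicates 1 and 2 at 10 days and 421 bp after it in replicate 2 at 48 h. It had a 2-step H3K4me3 peak at 620 bp in replicate 1 at 10 days. At H3c10, Sox9 summits at 265 and 202 bp in replicates 1 and 4 at 10 days formed 1 region with an H3K4me3 peak at 329 bp in replicate 2 at 48 h. H3c7 had H3K4me3 peaks in 2 libraries at 10 days and 1 at 48 h and a Sox9 peak in replicate 4 at 10 days. At the H2A gene H2ac23 peaks were of H3K4me3, in replicates 1 and 3 at 10 days and 1 and 3 at 48 h.

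Within a pellet, Sox9 and H3K4me3 peaks were found in or within 1000 bp of the same histone gene in 5 of 8 pellets. In the pellet of replicate 1 at 10 days Sox9 had peaks at 8 and H3K4me3 at 19 of the 43 genes, and both at 4 (H1f3, H3c6, H2bc7 and H2ac7). Both were present at 1 gene each in replicates 2, 3 and 4 at 10 days (H2bc14, H2bc22 and H3c10). In replicate 3 at 48 h each antibody had peaks at 9 genes, and both at 2 (H2ac12 and H2bc12). The other 3 pellets at 48 h had none. H2bc7 with H2ac7, and H2ac12 with H2bc12, are neighbours counted from the same peaks. At H2bc22 the peaks lay apart, with summits at chr13:21793752 for Sox9 and chr13:21802146 for H3K4me3. In replicate 1 at 10 days, 57.8% of all protein-coding genes had a Sox9 peak and 66.3% an H3K4me3 peak by the same count. In replicate 3 at 48 h these shares were 26.5% and 43.1%. Among genes of up to 1000 bp not among the 43, they were 8.45% and 8.90%, and 1.82% and 4.29%. The share of all genes with both antibodies in a pellet was not counted. The overlap to be expected from the numbers of genes alone was not tested, so no excess can be read from these counts. These genes are named for that overlap, after their values were seen.

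Taller peaks were few. Of 22 window peaks with 2 or more steps, 11 lay at histone genes. Sox9 had 3 of 30 at histone genes (10.0%), against 5 of 146 between them (3.42%) and 3.36% on the rest of the chromosome. At the ends of other genes the Sox9 share was 5.47%, and the 3 peaks at histone genes came from 2 libraries. H3K4me3 had 8 of 61 (13.1%), against 6 of 206 (2.91%) and 4.43%, and 16.4% at the ends of other genes. All 8 H3K4me3 peaks were from replicates 1, 2 and 3 at 10 days, 5 of them from replicate 1, whose list was the longest. The tallest at histone genes had 3 steps, at H2bc7 in replicate 1 and at H2bc14 in replicate 2. In that pellet Sox9 also had a peak of 2 steps at H2bc14, with summits 109 bp after the start for Sox9 and 274 bp for H3K4me3. The others were at H3c11 and at H2ac24 with H4bc24 for Sox9, and at H4c17, H2ac11 with H2bc11, H4c8, H4c6 and H3c6 for H3K4me3. When only peaks of 2 or more steps were counted, the density at histone genes no longer passed (Sox9 11.9, exact sign-flip p = 0.5, and H3K4me3 7.31, p = 0.258), since most libraries then had none there.

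Few stretches recurred between libraries. Merged peaks of the 16 lists gave 398 regions, of which 363 had peaks in 1 list and 1 in 4 lists or more. Of the regions of an antibody, 97.1% for Sox9 and 93.9% for H3K4me3 came from 1 library, beside 97.2% and 95.2% on the rest of chromosome 13. Recurrence in the window was thus close to that of the rest of the chromosome. In 3 or more lists were 9 of the 398 regions, beside 303 of 22628 on the rest of chromosome 13. Of these 9 regions, 8 lay at histone genes and 1, at chr13:23445572-23445847, lay beside 2 tRNA genes. Such regions were not counted at the ends of other genes, so the 8 cannot be read as particular to histone genes.

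The 3 gene blocks had different mean densities, each with wide scatter. In the left block the density was 4.63 ± 4.54 for Sox9 and 2.61 ± 2.41 for H3K4me3, and in the right block it was 1.82 ± 1.92 for Sox9 and 3.31 ± 1.57 for H3K4me3 (SD, n = 8 each). In the middle block it was 7.26 ± 9.36 for Sox9 and 4.96 ± 7.09 for H3K4me3 (SD, n = 8 each). That block of 5 genes held 4 Sox9 and 5 H3K4me3 peaks, and 4 of 8 libraries of each antibody had none there. In the right block H3K4me3 was above 1 in 8 of 8 libraries, while Sox9 was above 1 in 5 of 8 and at 0 in 3. Long annotated spans weigh unequally on the blocks. The right zone of 84823 bp takes in H2bc6 with 37455 bp, and the left zone of 52440 bp takes in H2bc22 with 14079 bp. The differences between blocks were not tested.

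The DNA between the blocks holds other gene families, and their mean densities lay below those of the histone genes. Within 1000 bp of the 79 tRNA genes of the window the density was 0.979 ± 0.897 for Sox9 and 1.15 ± 0.786 for H3K4me3 (SD, n = 8 each). At the 75 vomeronasal receptor genes and pseudogenes, which encode pheromone receptors of the nose, it was 0.729 ± 0.648 for Sox9 and 1.02 ± 0.625 for H3K4me3. At the 9 other protein-coding genes it was 1.52 ± 2.64 and 1.16 ± 0.886, and in the rest of the window 0.826 ± 0.266 and 0.800 ± 0.181, for Sox9 and H3K4me3 in that order. Differences between these kinds of sequence were not tested. Zfp184, a zinc finger gene, was the 1 gene outside the histone family with a peak in at least 4 lists. It had Sox9 in 1 library at 10 days and 1 at 48 h, and H3K4me3 in 2 at 10 days and 1 at 48 h. Of 36 protein-coding vomeronasal receptor genes 12 had a peak in any list, and none in more than 2.

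**Figure D5:**
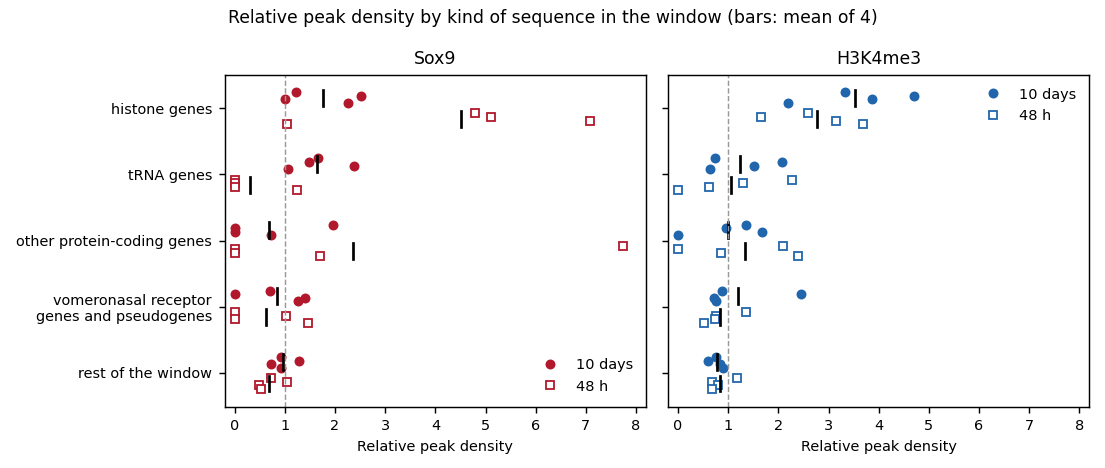
Relative peak density in each library for 5 kinds of sequence that divide the window, at 10 days and 48 h, with bars at the mean of 4 libraries. The means for tRNA genes, vomeronasal receptor genes and remaining sequence lie between 0.308 and 1.65, while all libraries are above 1 at histone genes. The single high Sox9 value of other protein-coding genes, 7.74, is 2 peaks of a short list.

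Histone genes outside the window also had mean densities above 1, given without a test. The 11 histone genes beyond its right edge, at chr13:23738807-23934913, had a density of 3.89 ± 3.29 for Sox9 and 4.44 ± 3.71 for H3K4me3, above 1 in 6 of 8 libraries of each antibody (SD, n = 8). The 10 histone genes of chromosome 3, at chr3:96219885-96270192, had 11.2 ± 6.19 for Sox9 and 9.40 ± 4.51 for H3K4me3 against the average of chromosome 3, above 1 in 7 of 8 libraries of each (SD, n = 8). The chromosome 3 genes rest on 17 and 22 peaks and a zone of 19525 bp.

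Genes for the factors that act on histone genes and their mRNAs were looked at for peaks at their own ends. The list holds 20 genes. Sox9 was found in 16.9% of the combinations of gene and library, against 9.98% for all protein-coding genes, and H3K4me3 in 21.9%, against 17.3%. H3K4me3 was present in 4 of 8 libraries at Sympk, a scaffold of mRNA 3′ processing, at the histone chaperone gene Asf1b and at Nfya, a subunit of NF-Y. Sox9 was present in 3 of 8 at E2f1, a cell cycle transcription factor, and at Lsm11, part of the U7 particle that processes histone mRNA. In at least 3 of 8 libraries Sox9 was present at 2 of the 20 genes (10.0%), against 6.32% of all protein-coding genes. For H3K4me3 this held at 5 of the 20 (25.0%), against 19.5%. These shares were not tested. Npat had 1 library of each antibody, Slbp had 2 of each, and Hinfp, which binds H4 promoters, and the chaperone gene Nasp had none. Marker genes of the sorted cell type were checked in the same way. Sox9 was at the ends of 12 tubule genes in 7.29% of combinations, of 6 immune genes in 6.25%, of 5 endothelial genes in 7.5% and of 4 stromal genes in 15.6%. For H3K4me3 the shares were 18.8% for tubule, 2.08% for immune, 10.0% for endothelial and 15.6% for stromal genes. Over all genes the shares were 9.98% for Sox9 and 17.3% for H3K4me3, so the tubule share lay below that of all genes for Sox9 and near it for H3K4me3.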

How the data were processed

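CUT&RUN peak lists of 8 Sox9 and 8 H3K4me3 libraries were used, 1 list per library. Per the file headers, here the names of the peaks, the authors called each list against the matching input. Partek 10, Bowtie2, Bowtie, MACS3 and mm10 are named in the submitters' processing notes. Filters, scaling, thresholds and the handling of reads with several matches are not given in the sources used here. Since the number of reads is unknown, precision rests on 4 replicates per group.

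The fold enrichment was deposited by the authors as a ratio to local background. Their significance values, a p-value and a q-value per peak, were deposited as −log10 values. The deposited score, a display value, was not used. The summit was taken as the deposited start plus summit offset. Pileup and background were solved from the fold and the p-value, assuming 1 added to each and a Poisson tail for the p-value. This succeeded for at least 99.98% of the peaks of a list, with pileups within 0.05 of whole multiples of 1 step for at least 99.77% of these. A step differs between lists (60.1 to 508 pileup units).

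Genes came from a RefSeq table of GRCm38.p6 without strand, and starts and strands from the RefSeq promoter table (41 of 43 histone genes matched). 1 histone pseudogene was left out. Relative densities, with chromosome 13 taken from the first to the last peak of any list, were tested over libraries by two-sided exact permutation or sign flips, with Benjamini-Hochberg adjustment within the families of density, time and antibody. Counts per gene had no test. The members and lists were chosen with earlier results of these data known. Histone genes were named by the number of lists with a peak in or within 1000 bp, ties by peaks of 2 or more steps and then position. Other genes and merged regions were named with peaks in at least 4 lists. Libraries of 1 antibody shared at most 13 identical peaks. Per the labels' protocols, Sox9 and H3K4me3 libraries of a time that share a number are aliquots of 1 pellet. In shares of peaks over 118 bins of 1000000 bp, the correlation of their deviations from group means was -0.0554 to 0.178. For libraries of 1 antibody with the same number at 10 days and 48 h these correlations were -0.133 to 0.151, and no label pairs them. The count at starts only, the test of time by antibody and each time on its own were added after the data were seen. The counting was tested on simulated lists. The tools were SciPy 1.17.1, NumPy 2.4.6, Matplotlib 3.10.9, pandas 2.3.3 and Python 3.11.15.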

Additional observations from a re-analysis of the deposited data

Results flagged for a closer look

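Of 16 group values examined for a sample far from the others of its group, 1 stood out, and chance would give about 1 in 20. Between histone genes, H3K4me3 at 48 h had a relative peak density of 1.315 in replicate 1, against 0.689 to 0.778 in replicates 2, 3 and 4 of the group. That library had 26 peaks between histone genes, while its density at histone genes, 2.58, lay inside the range of the other 3 libraries at 48 h.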

How the results depend on the processing

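The density at histone genes stayed above the chromosome average for both antibodies under the 8 other settings and without each pellet in turn. It lost the test with 2 or more steps (Sox9 11.9, p = 0.5, and H3K4me3 7.31, p = 0.258) and, for Sox9, with a flank of 3000 bp (2.43, p = 0.0547), where the exact sign-flip test was used throughout. With 3000 bp the H3K4me3 excess over other gene ends passed (0.670), and with 2 or more steps its difference between the times did (13.6). Against the other autosomes and X, the density between histone genes passed for Sox9 (0.844) and H3K4me3 (0.825). The remaining changes were changes of sign, and none of these differences passed a test under the alternative. For Sox9 minus other gene ends they were -0.168 with any overlap, -0.297 with 500 bp and -0.0503 on the log2 scale. With 2 or more steps the Sox9 differences between the times were 3.11 at histone genes and 1.91 over other gene ends, and that of H3K4me3 between histone genes was 0.166. The last was 0.0250 on the log2 scale and 0.0229 against other chromosomes, where the H3K4me3 window was at 0.982. Sox9 minus H3K4me3 at histone genes was 4.61 with 2 or more steps, 0.211 with 500 bp and 0.00518 against other chromosomes, and 6.51 over other gene ends with 2 or more steps. Between histone genes it was 0.0198 against other chromosomes and 0.0113 at starts only. In the whole window it was 0.0341 with 2 or more steps, 0.0183 on the log2 scale and 0.0187 against other chromosomes.

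Without each replicate in turn, Sox9 densities ranged from 2.56 to 3.43 at histone genes, 0.825 to 0.928 between them, 0.995 to 1.06 in the window and -0.475 to 0.343 over other gene ends. For H3K4me3 they ranged from 2.92 to 3.36, 0.801 to 0.890, 0.977 to 1.07 and 0.195 to 0.615 in that order. The density between histone genes passed without replicate 2 at 10 days for Sox9 (0.825) and without replicate 1 at 48 h for H3K4me3 (0.801). Differences between the times ranged for Sox9 from -3.91 to -1.89 at histone genes, -0.0632 to 0.0894 in the window and -3.001 to -1.09 over other gene ends, the lowest of the first and last without replicate 4 at 48 h (exact permutation p = 0.0286). For H3K4me3 they ranged from 0.368 to 1.203 at histone genes, -0.0675 to 0.141 between them, -0.0344 to 0.181 in the window and 0.260 to 0.997 over other gene ends. Sox9 minus H3K4me3 ranged from -0.583 to 0.390 at histone genes, -0.0396 to 0.0507 between them, -0.0740 to 0.0265 in the window and -0.919 to 0.0140 over other gene ends.

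The replicate block, by pellet for the antibodies and by number for the times, changed no call. At histone genes exact sign flips within pairs gave p = 0.25 for the Sox9 difference between the times of -2.75, and p = 1 for the Sox9 minus H3K4me3 difference of -0.0165. With summits within 250 bp in place of overlap, 4 regions in place of 1 had peaks in 4 lists, and 8 in place of 5 Sox9 regions recurred. The cause of these changes was not tested. Counts of 1 to 16 peaks per library at histone genes limit every comparison.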
